A study of Mus musculus with 4 samples.

Results

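Luminal cells of the dorsolateral prostate (DLP) that lacked the Runx1 reporter were compared between castrated and intact mice. The comparison used 1 library, run 2, and rested on 126 of its 6034 cells, out of 19148 cells in the whole series: 39 cells from castrated mice and 87 from intact mice. Cells were chosen by genes detected (750 to 7500), by mitochondrial UMIs (under 10%), by their sample barcode and by Epcam, Ptprc and keratin UMIs. A luminal cell had at least 1 Epcam UMI, no Ptprc UMI, at least 5 Krt8 plus Krt18 UMIs and under 3 Krt5 plus Krt14 UMIs per 10,000. A UMI (unique molecular identifier) is a tag that lets each captured RNA molecule be counted once. These values of Epcam, Ptprc, Krt8, Krt18, Krt5 and Krt14 chose the cells and are therefore not results.

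All mice carried P2-Runx1:RFP, in which the proximal P2 promoter of Runx1 drives a red fluorescent protein (RFP), on an outbred ICR (CD-1) background. They were adult males older than 8 weeks, either intact or surgically castrated more than 4 weeks before collection. Lobes of several mice were pooled before sorting, EPCAM+ epithelial cells were separated into RFP+ and RFP- fractions, and each fraction received 1 MULTI-seq sample barcode before droplet-based sequencing. Both reporter fractions of 3 lobes, the dorsolateral, the anterior (AP) and the ventral (VP), were sampled by the study. Each treatment group is thus 1 pool of mice, so no test of the treatment was possible and no p is given. Intact DLP RFP- cells were also present in run 1 (36 cells) and run 3 (92 cells), and those 2 sums with that of run 2 are the only measure of the spread between pools of mice.

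The prostate epithelium consists of secretory luminal cells over a layer of basal cells. Distal luminal cells of each lobe secrete large amounts of a few proteins, and their output depends on androgen. Castration removes testicular androgen, the secretory tissue regresses, and the luminal cells that remain make less secretion. Runx1, a transcription factor, marks luminal cells of the proximal ducts near the urethra, so in intact mice RFP- luminal cells are mainly those outside that compartment. After castration, the paper reports, most luminal cells were RFP+ and high RUNX1 was no longer confined to the proximal ducts. Castrated RFP- cells are thus a smaller remainder of the epithelium than intact RFP- cells. A change within cells cannot be told apart from a change in which cells lacked RFP.

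The sample barcodes below decided which treatment each cell was assigned to, and the capitals mark the whole barcode.
Intact DLP RFP-, runs 1 and 2: GCACACGC
Castrated DLP RFP-, run 2: CGACCAGC
Intact DLP RFP-, run 3: GGACCCCA
Each cell's barcode count was divided by that barcode's median over the library, and the highest ratio had to be at least 3 and at least 2 times the second. The median was 4 counts for the castrated barcode and 30 for the intact one, so a ratio of 3 meant 12 counts in castrated and 90 in intact cells. The barcode of intact DLP RFP+ cells had a median of 0 in run 2, so that population was not available there. In castrated cells the lowest ratio inside the limit was 3.00 and the highest outside it 2.50, and 3 cells were left out by this limit alone. In intact cells these ratios were 3.07 and 2.80, with 2 cells left out. The castrated member with the least Krt8 plus Krt18 had 5.63 UMIs per 10,000 and the cell just outside had 4.76; for intact cells these values were 5.33 and 4.90. The member with the most Krt5 plus Krt14 had 2.81 in castrated and 1.63 in intact cells, against 5.59 and 8.98 in the nearest cells outside.

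The castrated cells held 768976 UMIs in all (median 11058 per cell, range 1963 to 136109) and the intact cells of run 2 held 1957697 (median 19017, range 1895 to 96222). The intact sums of runs 1 and 3 held 866177 and 1863532 UMIs. Runs 1 and 2 shared 6 cell barcode sequences, runs 2 and 3 shared 5, and runs 1 and 3 shared 0. Levels are UMIs per 1000000 of the TMM-scaled library size of a group's summed counts, and ratios are castrated over intact of run 2. Intervals are exact 95% intervals that cover counting error only and not the spread between mice. A sum does not separate fewer expressing cells from less RNA in each cell, so per-cell values accompany the main genes.

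A subset of cells in both groups was dominated by products of other glands. Sbp, Spink1, Sbpl and Spinkl are secretory products of the ventral lobe, and the Svs genes encode seminal vesicle secretion proteins. In 6 of the 39 castrated cells the ventral products took 4141 to 6682 UMIs per 10,000, whereas no other castrated cell exceeded 91.7 (median 27.6). In the intact cells of run 2, 17 cells were ventral-product-rich, with 2344 to 6874 per 10,000. A further 11 intact cells had at least 2707 Svs UMIs per 10,000, and 0 castrated cells were rich in Svs products. The intact sums of runs 1 and 3 each contained 3 ventral-rich and 6 vesicle-rich cells. The 6 castrated cells were deep, with 36113 to 136109 UMIs each, and together held 50.3% of all UMIs of the castrated sum. The 17 intact ventral-rich cells held 40.9% of the intact UMIs and the 11 vesicle-rich cells 12.6%. Ventral-rich cells occurred in every population of run 2 that had luminal cells, among them 14 of 187 castrated DLP RFP+ cells, 18 of 176 castrated VP RFP+ cells and 134 of 150 intact VP RFP+ cells. Their own barcode counts in the castrated group were 12 to 413. Which lobe these cells came from was not tested.

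**Figure D1:**
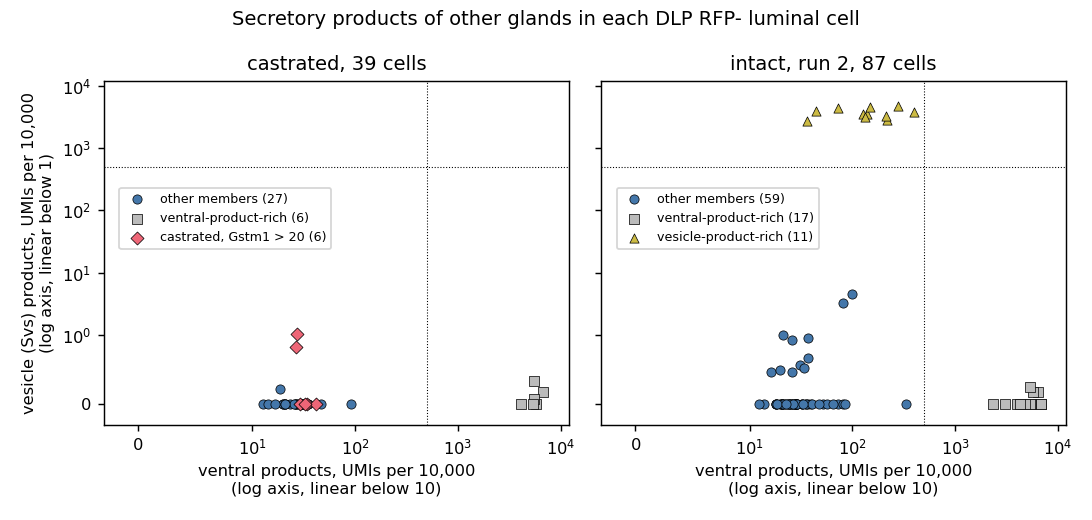
Each point is 1 DLP RFP- luminal cell of run 2, with summed ventral products on the x axis and summed Svs products on the y axis, both in UMIs per 10,000 on log axes that are linear near 0; dotted lines mark 500. The 6 castrated and 17 intact ventral-rich cells lie at 2344 or above on the x axis, and the 11 vesicle-rich cells, all intact, at 2707 or above on the y axis.

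Results are therefore given with and without the cells that held at least 500 UMIs per 10,000 of either product group. Without them, 33 castrated cells (382422 UMIs, median 10514, range 1963 to 44983) and 59 intact cells (910338 UMIs, median 16287, range 1895 to 35515) remained in run 2, with 27 intact cells in run 1 and 83 in run 3. Among all members, 5540 genes had a mean level over the 2 sums of at least that of 10 UMIs in the smaller sum, the minimum for a ratio to be counted, and 249 (4.49%) were at least 2-fold higher in castrated cells and 335 (6.05%) at least 2-fold lower. Of these, 234 higher genes (4.22%) lay above all 3 intact sums and 305 lower genes (5.51%) lay below all 3. Without product-rich cells, 4363 genes reached the minimum, 348 (7.98%) were at least 2-fold higher and 473 (10.8%) at least 2-fold lower; 342 (7.84%) lay above and 438 (10.0%) below every intact sum. The median log2 ratio over the measured genes was close to zero in both sets (-0.01 and -0.02). Unless stated otherwise, the values that follow are without product-rich cells.

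The secretory products of the lobe were the main difference. The level of Pbsn, which encodes the androgen-dependent secreted protein probasin, was 1037 in castrated cells and 13548, 15422 and 20210 in the intact sums of runs 1, 2 and 3. The castrated sum held 409 Pbsn UMIs (exact Poisson interval 370.3 to 450.6) and was 14.9-fold below intact run 2 (log2 -3.89, interval -4.04 to -3.75). The groups of sums did not overlap, and the castrated level was still above that of Ptprc+ Epcam- cells of the same library (150), which should lack the gene and so measure free RNA. In single cells the median was 4.02 Pbsn UMIs per 10,000 (range 0 to 106) in castrated and 150 (range 0 to 571) in intact cells. The highest castrated cell was thus below the median intact cell. With all members the log2 ratio was -3.85. The gene lies on chrX:77837901-77853623 (GRCm38, minus strand).

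Tgm4, the prostate transglutaminase that cross-links proteins of the copulatory plug, was at 1739 in castrated cells and at 12396, 13507 and 13074 in intact cells (log2 -2.96, interval -3.07 to -2.85). Its median per cell was 1.07 per 10,000 in castrated and 157 in intact cells, although the ranges overlapped (0 to 197 and 0 to 346). 9530002B09Rik was at 768 against 13307, 13422 and 13598 (log2 -4.13). Its ratio depended on the product-rich cells: with all members it was -0.47, and the castrated level of 10910 fell within the intact sums of 11808, 15086 and 9753. 9530053A07Rik was at 1962 against 19148, 20740 and 18658 (log2 -3.40), but 75.2% of its castrated UMIs were in 1 cell. The median castrated cell had 0 UMIs of it against 195 per 10,000 in the median intact cell.

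Other products varied among the intact pools. Defb50, a beta-defensin, was at 1095 in castrated cells and at 1836, 20913 and 42825 in the intact sums. Msmb, the beta-microseminoprotein, was at 17.7 in castrated cells, below the free RNA level of 28.8, and at 76.1, 13360 and 19519 in intact cells. Both genes had their lowest sum in castrated cells, yet intact run 1 was far below the other intact runs. The size of these ratios (log2 -4.26 and -9.56) thus depends on the intact pool used. The median intact cell of run 2 had 9.55 Defb50 UMIs per 10,000 (maximum 1330). The 27 castrated cells outside the 6 described below had a median of 7.35. For Msmb the intact median was 0.491 (maximum 1180), with 10 of 59 cells over 30, and the castrated median was 0. Both intact sums of run 2 thus rested on a minority of cells with very high values. Mmp7, matrilysin, was at 7.60 against 638, 294 and 335, with 3 castrated UMIs, all in 1 cell (log2 -5.27, interval -7.56 to -3.71).

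Of 28 listed lobe products, 21 were above the minimum level, 14 were at least 2-fold lower and 3 at least 2-fold higher in castrated cells (median log2 -2.96, over all measured genes -0.02; background 10.8% lower, 7.98% higher). With all members 15 of 25 were lower (background 6.05%) and 2 higher (background 4.49%). The 3 that were higher were Pnliprp1, Ang5 and Wfdc15b. Pnliprp1, a pancreatic lipase-related protein, was at 378 against 113, 29.7 and 57.2 (log2 3.67, interval 3.07 to 4.32), and was likewise higher in castrated AP RFP- cells (1669 against 217). Ang5, a ribonuclease of the angiogenin family, was at 259 against 0, 15.4 and 2.76. Wfdc15b, a secreted whey acidic protein, was at 147 against 7.42, 7.69 and 159 and thus within the intact range. The products of the ventral lobe stood near their free RNA levels in both groups: Sbp was at 1559 in castrated and 1611 in intact cells of run 2, against 2395 in Ptprc+ cells.

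**Figure D2:**
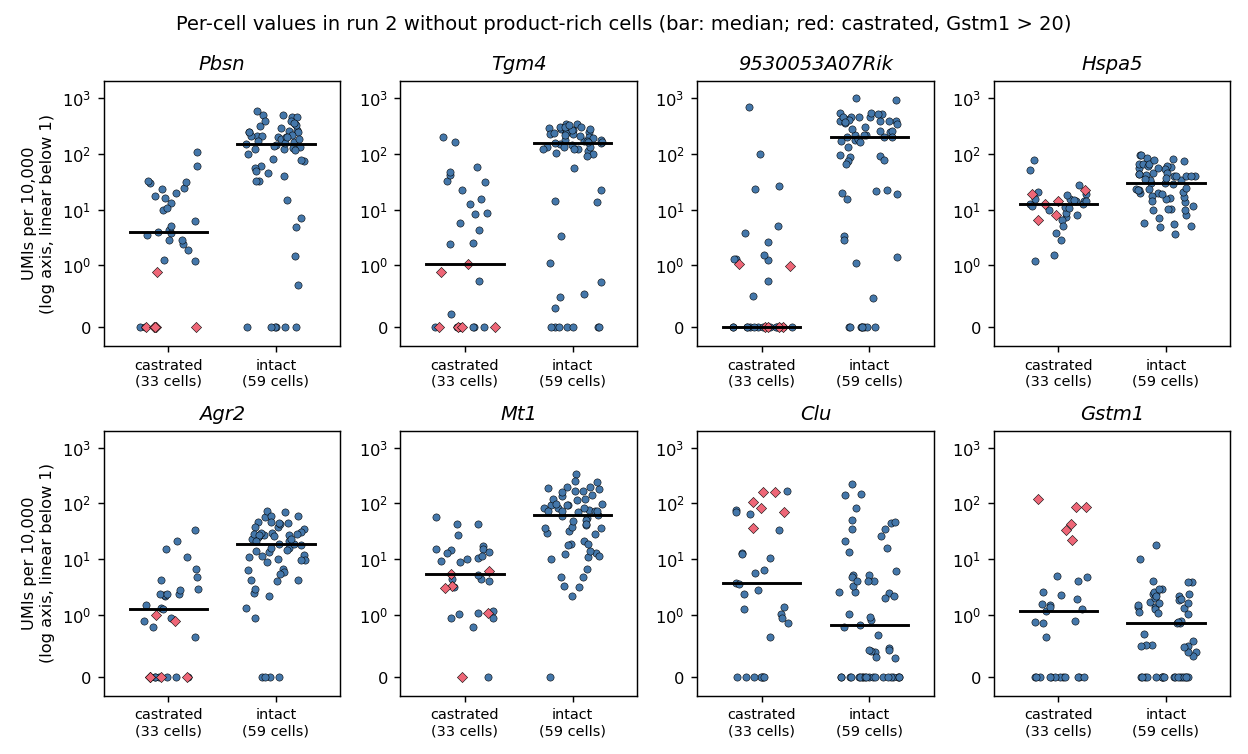
Per-cell values (y axis, UMIs per 10,000, log axis that is linear below 1) of 8 genes in the 33 castrated and 59 intact cells of run 2 without product-rich cells; each point is 1 cell and the bar is the median. Castrated medians lie below intact medians for Pbsn (4.02 and 150), Tgm4 (1.07 and 157) and Hspa5 (12.4 and 30.3); red diamonds are the 6 castrated cells with over 20 Gstm1 UMIs per 10,000.

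The promoters of 2 of these products are shown because both hold the letters AGAACA, the half-site of the element bound by steroid receptors; capitals mark the match. The sequences run from 250 bases before to 50 bases after the RefSeq start of transcription (GRCm38.p6).
Pbsn, chrX:77853451-77853750, minus strand: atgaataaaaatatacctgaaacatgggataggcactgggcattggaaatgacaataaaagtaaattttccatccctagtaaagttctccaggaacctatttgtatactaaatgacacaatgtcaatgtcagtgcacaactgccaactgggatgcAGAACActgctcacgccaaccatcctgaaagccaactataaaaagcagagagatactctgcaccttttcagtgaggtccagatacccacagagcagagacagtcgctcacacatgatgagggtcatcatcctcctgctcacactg
9530053A07Rik, chr7:28129216-28129515, plus strand: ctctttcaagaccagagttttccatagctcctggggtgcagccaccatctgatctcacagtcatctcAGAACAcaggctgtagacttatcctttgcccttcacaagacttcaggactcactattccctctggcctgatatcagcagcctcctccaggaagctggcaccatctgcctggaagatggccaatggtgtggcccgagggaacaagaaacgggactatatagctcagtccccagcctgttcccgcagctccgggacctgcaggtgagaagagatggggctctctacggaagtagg
The match began at position -95 of Pbsn and at -183 of 9530053A07Rik, relative to the start. AGAACA, searched on both strands, was present in 14 of 23 windows (60.9%) of the lobe products and in 19.0% of all 32851 windows of this length. The same letters occurred in 19.4% of the windows of androgen-responsive genes. Of the lobe products above the minimum, 6 of 9 with the letters and 3 of 6 without them were at least 2-fold lower (median log2 -3.40 and -1.39). Pigr, Sbp and Wfdc15b held the letters and were not lower (log2 0.15, -0.05 and 4.26). A match describes the letters and does not show binding.

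Genes that respond to androgen were described next, beginning with members that were at least 2-fold lower. Mme, a membrane peptidase, was at 86.2 against 342, 667 and 777 (log2 -2.95). Azgp1, a secreted zinc-binding glycoprotein, was at 20.3 against 167, 145 and 174 (log2 -2.84). In each case the castrated level was below every intact sum. Fkbp5, a co-chaperone of steroid receptors, was at 15.2 against 22.3, 67.0 and 59.3 (log2 -2.14), Zbtb16, a zinc finger repressor, at 12.7 against 33.4, 54.9 and 35.8 (log2 -2.12), and the protease gene Tmprss2 at 27.9 against 109, 79.1 and 68.2 (log2 -1.50).

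Of 32 listed androgen-responsive genes 16 were above the minimum, 9 were at least 2-fold lower (background 10.8%) and 1 was higher (background 7.98%), with a median log2 ratio of -1.22. The other 6 stayed under 2-fold, among them Tspan1, which was slightly lower, and Azin1 and Sgk1, which had positive log2 ratios (0.91 and 0.96). With all members 7 of 17 were lower (background 6.05%) and the median was -0.55. The gene that was higher was Pmepa1, an inhibitor of TGF-beta signalling, at 88.7 against 16.7, 29.7 and 6.89, with 60.0% of its castrated UMIs in 1 cell. The pioneer factor Foxa1 was at 81.1 against 102, 126 and 126, and Hoxb13, a posterior homeobox factor of the prostate, at 208 against 332, 287 and 316. Neither reached 2-fold (log2 -0.64 and -0.46). Esr1, the estrogen receptor alpha, was at 60.8 against 29.7, 34.1 and 44.1.

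Genes of protein folding and export in the endoplasmic reticulum (ER) were lower together. Of 45 listed genes, 41 were above the minimum, and all 41 had a negative log2 ratio. At least 2-fold lower were 28 (background 10.8%), and 0 were higher (background 7.98%). Of the lower genes, 27 lay below all 3 intact sums (background 10.0%). The median log2 ratio was -1.16. With all members 14 of 42 were at least 2-fold lower (background 6.05%), and the median was -0.77. The summed level of the list was 10452 in castrated cells and 31616, 29891 and 30083 in the intact sums.

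Hspa5, the chief ER chaperone BiP, was at 1612 against 2771, 4101 and 4380 (log2 -1.35, interval -1.47 to -1.23), and at -0.98 with all members. Its median per cell was 12.4 per 10,000 in castrated cells (range 1.18 to 77.0) and 30.3 in intact cells (range 3.69 to 96.1), so the cells overlapped although the sums did not. Hsp90b1, the ER member of the HSP90 family, was at 484 against 3987, 2190 and 2083 (log2 -2.18). The disulfide isomerases followed: Pdia6 was at 745 against 2596, 2729 and 2485 (log2 -1.87), and Agr2, which is characteristic of secretory epithelia, at 322 against 2214, 2060 and 1498 (log2 -2.68). Agr2 had a median of 1.29 per 10,000 in castrated and 18.7 in intact cells. Calr, a calcium-binding lectin chaperone, was at 393 against 1923, 1513 and 1637 (log2 -1.94).

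Among less abundant members, Creld2 (63.4 against 1659, 423 and 355), Sdf2l1 (76.0 against 596, 494 and 361), Derl3, a component of ER-associated degradation (12.7 against 265, 112 and 105), and Dnajc3, a co-chaperone of Hspa5 (210 against 1405, 1025 and 964), had log2 ratios of -2.74, -2.70, -3.14 and -2.28. Xbp1, the transcription factor of the unfolded protein response, was at 147 against 134, 175 and 163 and did not leave the intact range (log2 -0.25).

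The promoters of 3 of these genes are shown because they hold the ER stress response element (CCAAT, any 9 bases, then CCACG), to which NF-Y and ATF6 bind; capitals mark the matches.
Hspa5, chr2:34771840-34772139, plus strand: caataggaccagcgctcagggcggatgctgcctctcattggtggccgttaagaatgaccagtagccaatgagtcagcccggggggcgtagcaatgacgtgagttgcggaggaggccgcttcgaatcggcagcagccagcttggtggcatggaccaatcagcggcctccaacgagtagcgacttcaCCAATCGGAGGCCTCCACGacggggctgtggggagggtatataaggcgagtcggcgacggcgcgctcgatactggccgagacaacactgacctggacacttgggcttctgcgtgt
Hsp90b1, chr10:86705395-86705694, minus strand: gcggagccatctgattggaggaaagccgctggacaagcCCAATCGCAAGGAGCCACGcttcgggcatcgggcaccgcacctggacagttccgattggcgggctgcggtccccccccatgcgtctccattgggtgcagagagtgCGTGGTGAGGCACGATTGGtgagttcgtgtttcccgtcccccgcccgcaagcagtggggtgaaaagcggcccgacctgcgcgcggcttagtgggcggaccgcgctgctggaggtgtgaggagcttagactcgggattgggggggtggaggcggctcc
Pdia6, chr12:17266339-17266638, plus strand: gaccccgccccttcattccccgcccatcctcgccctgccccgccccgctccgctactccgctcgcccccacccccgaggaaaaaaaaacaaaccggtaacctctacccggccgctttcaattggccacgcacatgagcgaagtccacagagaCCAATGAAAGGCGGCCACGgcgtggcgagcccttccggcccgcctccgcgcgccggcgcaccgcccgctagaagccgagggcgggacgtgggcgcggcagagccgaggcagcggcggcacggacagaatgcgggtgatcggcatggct
The match began at -65 in Hspa5 and -98 in Pdia6, whereas Hsp90b1 had 2 matches, at -212 and, as the reverse complement, at -107. Searched on both strands, the element was present for 8 of 34 listed genes with a promoter sequence (23.5%) and for 37 of 27025 genes in all (0.137%). The other listed genes with it were Calr, Canx, Creld2, Derl3 and Dnajc3. Among the 8 genes 7 were at least 2-fold lower in castrated cells (median log2 -2.06), Canx being the exception (-0.93), and 15 of the 23 listed genes without it were lower (median -1.06).

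**Figure D3:**
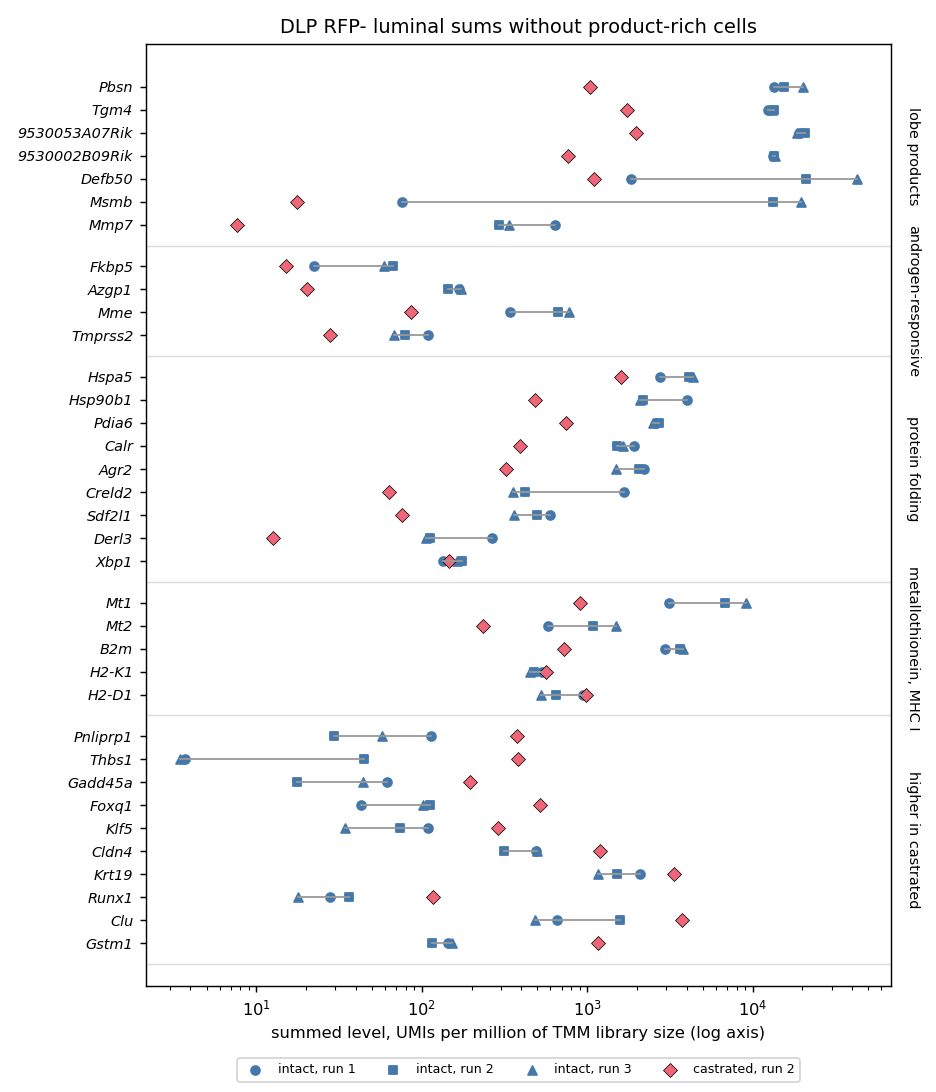
Summed levels (x axis, UMIs per 1000000 of the TMM library size, log axis) of named genes in the castrated sum (red diamonds) and the intact sums of runs 1, 2 and 3 (blue circles, squares and triangles, joined by a line), without product-rich cells. Castrated levels lie left of all intact sums for Pbsn (1037), Agr2 (322) and Mt1 (907), within them for Xbp1 (147), and right of them for Cldn4 (1194) and Foxq1 (522).

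Metallothioneins and zinc exporters are typical of secretory prostate cells, which accumulate zinc. Mt1, a metal-binding protein, was at 907 in castrated cells against 3142, 6824 and 9073 in intact cells (log2 -2.91, interval -3.07 to -2.76), with medians per cell of 5.4 and 60.8 per 10,000. Mt2 was at 236 against 577, 1079 and 1495 (log2 -2.19). Slc30a2, a vesicular zinc transporter, was at 30.4 against 187, 156 and 148 (log2 -2.36). These 3 genes were lower than every intact sum, and 5 of the 13 zinc and citrate genes above the minimum were at least 2-fold lower (background 10.8%) with 0 higher (background 7.98%). The castrated Mt1 level was close to that of Ptprc+ cells (816).

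Several genes with the lowest ratios were on no list. Chn2, a Rac GTPase-activating protein, was at 68.4 against 1488, 2046 and 1835 (log2 -4.90, interval -5.51 to -4.36), with a median per cell of 0 in castrated and 20.8 per 10,000 in intact cells. Tcaf3, a TRP channel-associated factor, was at 40.6 against 327, 675 and 795 (log2 -4.06). Both stood below every intact sum and were also lower in AP (log2 -3.09 and -1.93). Few castrated UMIs lay behind the rest. Gpx3, a secreted glutathione peroxidase, had 1 castrated UMI against 254 (log2 -6.78, interval -12.09 to -4.29). Col4a6, a basement membrane collagen chain, had 2 against 110 (log2 -4.57, interval -7.64 to -2.69), and Gmppb, an enzyme of protein glycosylation, had 2 against 100 (log2 -4.44, interval -7.50 to -2.55). Cdo1, cysteine dioxygenase, was among the lowest with all members (32.3 against 898, 574 and 372, log2 -4.15) but had a log2 ratio of 0.81 without product-rich cells.

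The light chain of MHC class I was lower while the heavy chain genes H2-K1 and H2-D1 were not. Of 11 listed antigen presentation genes above the minimum, 4 were at least 2-fold lower (background 10.8%), B2m among them, and 2 higher (background 7.98%). B2m was at 725 against 2966, 3639 and 3798 (log2 -2.33, interval -2.51 to -2.15), and castrated cells had a median of 7.13 per 10,000 (range 0 to 20.4) against 26.2 (range 3.27 to 229). The heavy chain gene H2-K1 was at 565 against 533, 476 and 450 (log2 0.25), and H2-D1 at 984 against 945, 649 and 528 (log2 0.60). Psmb8, a subunit of the immunoproteasome, was at 139 against 57.5, 51.6 and 70.3 (log2 1.43). Immune cells express B2m, H2-K1, H2-D1 and Psmb8, and in Ptprc+ cells B2m was at 1274 and H2-D1 at 4003. In the castrated DLP RFP+ sum B2m was at 600.

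Genes at least 2-fold higher in castrated cells included regulators of the immediate response, growth and epithelial junctions. Thbs1, an extracellular matrix glycoprotein, was at 380 against 3.71, 45.0 and 3.44 (log2 3.08, interval 2.57 to 3.61). Gadd45a, a growth arrest gene, was at 195 against 61.3, 17.6 and 44.1 (log2 3.47). Nr4a2, an orphan nuclear receptor, was at 165 against 24.1, 23.1 and 40.0 (log2 2.84), and Fosl1, an AP-1 subunit, at 93.8 against 1.86, 13.2 and 8.96 (log2 2.83). All 4 lay above every intact sum. Fewer UMIs lay behind Car8, a carbonic anhydrase-related protein (37 castrated UMIs, log2 3.83), Nipal1, a magnesium transporter (32 UMIs, log2 3.21), and Prss23, a serine protease (19 UMIs, log2 3.87).

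Of 20 immediate early genes above the minimum, 6 were at least 2-fold higher (background 7.98%) and 0 lower (background 10.8%), with a median of 0.73. Atf3, an AP-1 related factor induced by stress, was at 2484 against 1618, 1029 and 1254 (log2 1.27). Fos was at 535 against 2381, 1011 and 1410 (log2 -0.92) and Egr1 at 497 against 655, 821 and 1158 (log2 -0.72), so the list did not move as a block. Immediate early genes are also known to respond to tissue dissociation, and with 1 pool in each group, handling and treatment cannot be told apart.

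Some tight junction genes were higher in castrated cells. Cldn4, a claudin of simple epithelia, was at 1194 against 488, 314 and 496 (log2 1.93, interval 1.71 to 2.14), with medians of 9.56 per 10,000 in castrated and 1.37 in intact cells. F11r, a junctional adhesion molecule, and Cgn, cingulin, were at least 2-fold higher as well (log2 1.23 and 1.05). Cldn10 was lower, at 22.8 against 113, 87.9 and 62.0. Of 10 tight junction genes above the minimum, 4 were at least 2-fold higher (background 7.98%), 1 was lower (background 10.8%) and 5 were neither. Without 6 castrated cells that are described below, 2 were higher and 1 lower. Among the 18 epithelial transcription factors above the minimum, 7 were at least 2-fold higher (background 7.98%) and 5 lower (background 10.8%). Without those 6 cells 5 of 17 were higher and 5 lower. Over all genes without those 6 cells, 278 of 3912 were at least 2-fold higher and 434 lower. Foxq1, a forkhead factor, was at 522 against 42.7, 112 and 101 (log2 2.22, interval 1.87 to 2.58), and Klf5, a factor of epithelial progenitors, at 289 against 110, 73.6 and 34.4 (log2 1.97). Klf4 and Sox9 were higher as well (log2 1.25 and 1.07). Ehf (243 against 592, 666 and 591), Gata2 (76.0 against 187, 194 and 170) and Spdef (17.7 against 66.8, 47.2 and 31.7), which are factors of secretory luminal cells, were lower, with log2 ratios of -1.45, -1.35 and -1.41.

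Of 29 proximal luminal and castration-associated genes, 23 were above the minimum. Of these, 11 were at least 2-fold higher (background 7.98%), 3 were lower (background 10.8%) and the median log2 ratio was 0.92. With all members 7 of 24 were higher (background 4.49%), 5 were lower (background 6.05%) and the median was 0.15, so genes moved in both directions. Krt19, a keratin of simple epithelia, was at 3336 against 2097, 1505 and 1155 (log2 1.15). Ly6e, a GPI-anchored surface protein, was at 565 against 321, 182 and 104 (log2 1.63), and Lpl, lipoprotein lipase, at 167 against 33.4, 62.6 and 84.1 (log2 1.42). Each of the 3 was above every intact sum. Other genes of the list were not: Psca, a surface antigen, was at 297 against 1815, 413 and 0.689, with 87.2% of its castrated UMIs in 1 cell, and Krt4 was at 40.6 against 85.4, 54.9 and 13.1. Cd24a, Ly6a and Ly6d of the list also stayed under 2-fold (log2 0.10, 0.22 and -0.25). So did Dpp4, a luminal marker on no list, and Tspan1, which is on the androgen-responsive list (log2 -0.19 and -0.52). Basp1, a membrane-bound growth-associated protein, was at 289 against 79.8, 135 and 108 (log2 1.10), with 740 in Ptprc+ cells, and its log2 ratio was -0.33 among the 7 castrated and 13 intact cells under 7500 UMIs. Crym had 5 castrated and 1 intact UMIs and Runx2 had 0 and 4.

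Runx1, whose P2 promoter defined the sort, was itself higher in castrated RFP- cells. Its level was 117 in castrated cells and 27.8, 36.3 and 17.9 in the intact RFP- sums (46 and 33 UMIs in run 2, log2 1.69, interval 1.01 to 2.38). The castrated RFP+ sum was at 190 and the intact RFP+ sum of run 3 at 80.6, so castrated RFP- cells had a higher Runx1 level than intact RFP+ cells of run 3. Runx1 lies on chr16:92601466-92826149 (minus strand), and a 3' count does not separate transcripts of the 2 promoters. When cells were limited to 7500 UMIs, which left 7 castrated and 13 intact cells, the log2 ratio of Runx1 was -0.65.

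Clusterin (Clu), a secreted chaperone known for its induction in the regressing prostate, was at 3767 against 661, 1573 and 484 (log2 1.26, interval 1.15 to 1.37). It was unevenly distributed: 11 of 33 castrated cells (33.3%, exact binomial interval 18.0 to 51.8%) had more than 30 Clu UMIs per 10,000, as did 9 of 59 intact cells (15.3%, interval 7.22 to 27.0%). Another 11 castrated cells had more than 20 UMIs per 10,000 of Pbsn, Tgm4 and Msmb together, against 52 of 59 intact cells (88.1%, interval 77.1 to 95.1%). No castrated cell and 3 intact cells met both conditions. A further 10 castrated cells (30.3%, interval 15.6 to 48.7%) and 1 intact cell met neither of these and had at most 10 Krt4 plus Psca UMIs per 10,000. The 11 Clu-high castrated cells included all 6 castrated cells with over 20 Gstm1 UMIs per 10,000, which are described below. The difference in Clu-high shares therefore rests largely on those 6 cells. In sum, the other 27 castrated cells held 26.4 Clu UMIs per 10,000 and the 59 intact cells 15.7.

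The castrated RFP- and RFP+ sums of the DLP stood side by side as follows, without a test. Clu was at 3767 in RFP- and 10304 in RFP+ cells, and Ly6e at 565 and 1279. The summed proximal list was at 12193 and 23686, but it includes Clu and Ly6e and is thus not a separate value. Mmp7 was at 7.60 and 281. Other genes differed less between the 2 castrated fractions, with Pbsn at 1037 and 672, Hspa5 at 1612 and 1239 and Mt1 at 907 and 839. Genes with a higher sum in the RFP- fraction were Pnliprp1 (378 and 52.3), Psca (297 and 19.9) and Gstm1 (1166 and 123). Most Psca UMIs of that fraction were in 1 cell, as given above, and 92.4% of its Gstm1 UMIs were in 6 cells described below. The Psca and Gstm1 sums thus do not describe the fraction as a whole.

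**Figure D4:**
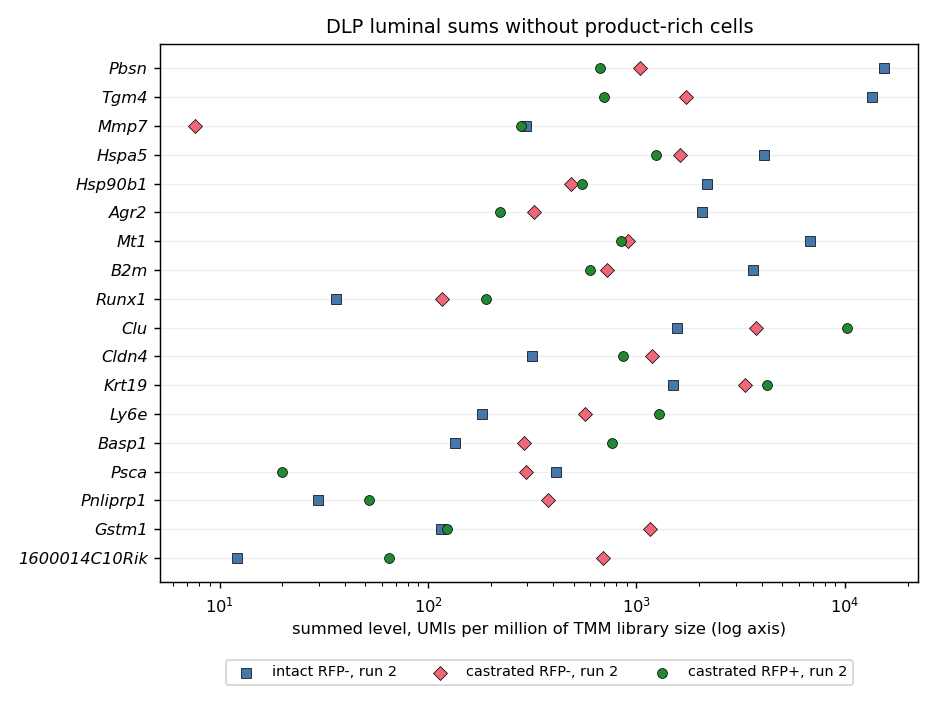
Summed levels (x axis, UMIs per 1000000 of the TMM library size, log axis) in intact RFP- (blue squares), castrated RFP- (red diamonds) and castrated RFP+ (green circles) DLP luminal cells of run 2, without product-rich cells. Castrated fractions lie close together for Mt1 (907 and 839), and apart for Clu (3767 and 10304), Mmp7 (7.60 and 281) and Gstm1 (1166 and 123).

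A small number of cells carried the glutathione transferases and several of the genes with the highest ratios. Gstm1, which conjugates glutathione to electrophiles, was at 1166 against 145, 115 and 152 (log2 3.34, interval 3.03 to 3.66). Yet its median per cell was 1.20 per 10,000 in castrated and 0.876 in intact cells, and 6 castrated cells with 21.9 to 118 per 10,000 held 92.4% of the castrated Gstm1 UMIs. No other castrated DLP RFP- cell had more than 5.09, and the 59 intact cells reached 18.0. With product-rich cells kept, 1 of 87 intact DLP RFP- cells of run 2 and 1 of 36 of run 1 exceeded 20. So did 3 of 187 castrated DLP RFP+ cells of run 2. In AP of run 2, 2 of 159 intact RFP-, 1 of 71 castrated RFP- and 1 of 123 intact RFP+ cells exceeded 20. The 6 castrated DLP RFP- cells, chosen after their values were seen, held 9307 to 12117 UMIs each and 16.5% of the castrated sum. They also held 96.3% of the UMIs of 1600014C10Rik, 93.2% of those of the carboxylesterase Ces1d, and 82.8% of those of the methyltransferase Inmt. Their Clu values were 36.9 to 159 per 10,000, and they had 1 Pbsn and 2 Tgm4 UMIs in all.

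The same 6 cells shared some genes, but not others, with the 11 intact vesicle-rich cells. Wfdc15b was at 9.01 per 10,000 in the 6 cells, 0.0313 in the other 27 castrated cells, 57.7 in the vesicle-rich cells and 0.0769 in the other 59 intact cells. Folr1, a folate receptor, was at 25.3, 0.0627, 13.02 and 0.165 in the same order. Several genes that marked the 6 cells were also higher in the vesicle-rich cells than in the other 59 intact cells. In the same order, Gstm1 was at 67.21, 1.097, 8.653 and 1.153, and Gstm2 at 11.39, 0.8459, 17.14 and 1.439. For 1600014C10Rik these values were 41.43, 0.3133, 3.032 and 0.1208, and for Inmt 8.381, 0.3446, 1.334 and 0.04394. Cd52 was at 6.642, 0.1253, 157.2 and 2.329. Pax2, a transcription factor of mesonephric derivatives such as the seminal vesicle, had 2 UMIs in the 6 cells, 8 in the vesicle-rich cells and 0 in both other groups. Other genes differed between them. Svs5 had 0 UMIs in the 6 cells and 2718 per 10,000 in the vesicle-rich cells. Mgst1, a microsomal glutathione transferase, had 37 UMIs in the 6 cells and 0 in the vesicle-rich cells, and F3, tissue factor, had 40 and 0. Foxq1 was at 11.7 and 0.0809 per 10,000. No origin of the 6 cells was tested.

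Without the 6 cells Gstm1 was at 106 against 115 (log2 -0.13), 1600014C10Rik was at 30.2 against 12.1 and Ces1d at 15.1 against 4.39, and the median log2 ratio of the glutathione transferases went from 1.39 (5 of 10 at least 2-fold higher, background 7.98%) to -0.02 (1 of 8). Over all genes without the 6 cells, 278 of 3912 were at least 2-fold higher and 434 lower. Clu was then at 2539 against 1573 (log2 0.69). Several other results were smaller. Klf5 went from a log2 ratio of 1.97 to 1.17 and F11r from 1.23 to 0.64, which is under 2-fold. The proximal luminal list went from 11 of 23 genes at least 2-fold higher (median 0.92) to 8 of 22 (median 0.56), and the tight junction list from a median of 0.80 to 0.36. The complement and epithelial defense list went from 3 to 5 lower of 7 (median -0.13 to -2.08). Pbsn had a log2 ratio of -3.65, Hspa5 of -1.31, Mt1 of -2.74, B2m of -2.40, Cldn4 of 1.63, Krt19 of 1.15, Foxq1 of 1.83 and Runx1 of 1.66. In the ER list 27 of 41 genes were at least 2-fold lower.

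The same comparison in AP RFP- cells used 54 castrated and 137 intact cells of run 2 without product-rich cells. They came from the same library and shared no cells with the DLP. Both lobes were dissected from the pooled reporter mice of that run, so AP is not an independent replicate of the treatment. Pbsn was at 1596 and 11256 there (log2 -2.82), Tgm4 at 2141 and 17371 (-3.02) and Mt1 at 1292 and 8251 (-2.67). In AP, 31 of 42 ER folding genes were at least 2-fold lower (median -1.25), where 10.4% of all 6493 genes above the minimum in AP were lower and 8.75% higher. Cldn4 (log2 2.58) and Thbs1 (3.88) were at least 2-fold higher in AP as well. Gstm1 was at 289 and 243 (log2 0.25), and 1600014C10Rik at 14.4 and 11.1. H2-K1 was at 750 and 261 in AP (log2 1.52).

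**Figure D5:**
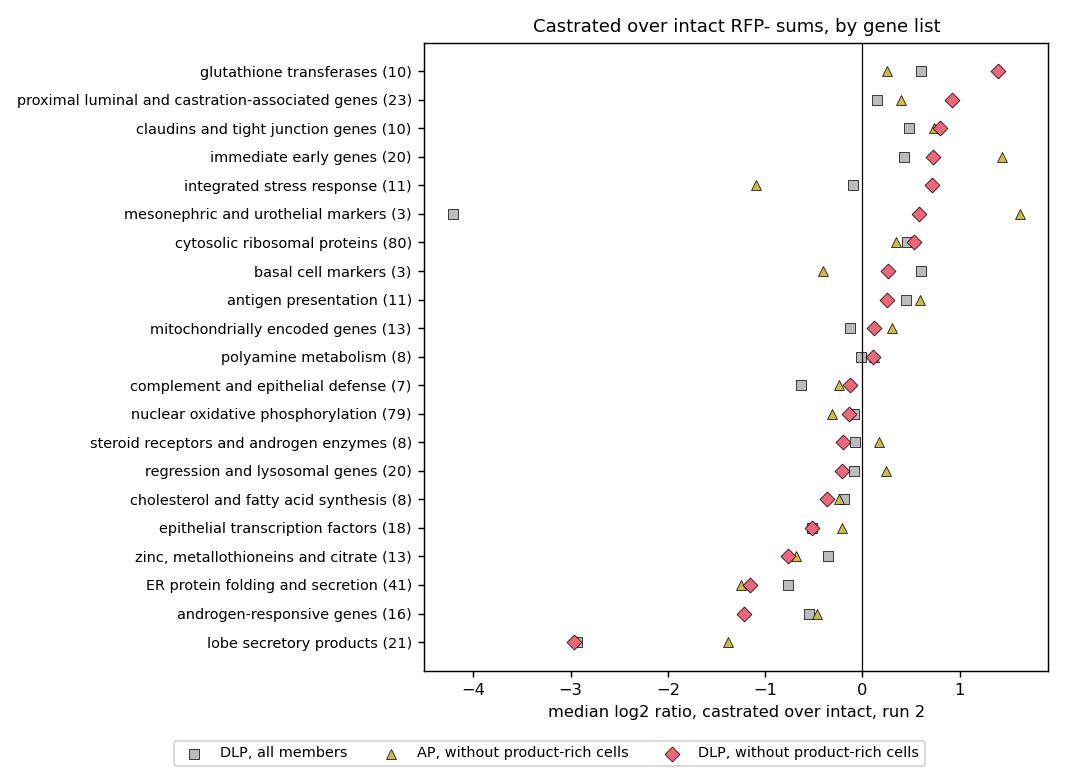
Median log2 ratio (x axis, castrated over intact, run 2) of each gene list with at least 3 genes above the minimum, in all DLP RFP- members (grey squares), DLP without product-rich cells (red diamonds, number of genes in parentheses) and AP RFP- cells without product-rich cells (yellow triangles). Lobe secretory products (-2.96), androgen-responsive genes (-1.22) and ER protein folding (-1.16) are lowest in the DLP, and the mesonephric and urothelial list moves from -4.21 to 0.58 when product-rich cells are left out.

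Broad housekeeping lists stayed under 2-fold. Of 80 cytosolic ribosomal protein genes 77 had a positive log2 ratio (median 0.53), and their summed level was 302111 against 171664, 208718 and 251758. Nuclear oxidative phosphorylation genes had a median of -0.14 (79 genes) and mitochondrially encoded genes of 0.12 (13 genes). Of the integrated stress response genes 4 of 11 were at least 2-fold higher and 3 lower (background 7.98% and 10.8%). Among lysosomal and regression genes 2 of 20 were higher (Clu and the cathepsin gene Ctsh) and 3 lower (Ctsd, Igfbp5 and Igfbp7), shares near the background. Polyamine metabolism (0 higher and 2 lower of 8), cholesterol and fatty acid synthesis (0 and 2 of 8) and complement and epithelial defense (0 and 3 of 7) stood beside the same background, with few genes in each list. Only 1 of 29 proliferation genes was above the minimum.

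Markers of immune, basal and neuroendocrine cells were described next. Of 18 immune markers only Cd52 was above the minimum, at 117 against 189, 233 and 1112, and the summed immune markers were at 162 against 191, 359 and 1122, compared with 10570 in Ptprc+ cells. The 6 Gstm1-high cells held 91.3% of the castrated Cd52 UMIs. Without them Cd52 was at 12.1 against 233 in intact run 2 (log2 -4.27). With all members Cd52 was at 59.4 against 2915, 2100 and 2439 (log2 -5.14), and 3888 of its intact UMIs of run 2 were in the 11 vesicle-rich cells (157 per 10,000), against 212 in the other 59 cells. The summed basal markers, without Krt5 and Krt14, were at 679 against 624, 546 and 338. The neuroendocrine gene Chga, a secretory granule protein, had 0 castrated UMIs and 244 intact ones, 70.9% of them in 1 cell. The summed mesonephric and urothelial markers were at 709.8 against 221, 337 and 615, above every intact sum and above Ptprc+ cells (18.6), and that list includes Foxq1, at 522 in castrated cells.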

How the data were processed

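Adult prostate epithelial cells were profiled in 3 droplet libraries, of which run 2 held both treatments of the DLP RFP- fraction. The authors made the deposited gene and sample barcode counts, whole-number UMI counts with no normalization, with Cell Ranger 3.1.0 on mm10 (GRCm38), and named deMULTIplex, Seurat 3.1.5 and DoubletFinder for demultiplexing, clustering and doublets. Here the deposited counts were read as they stand. No doublet caller was run; the barcode rule (top ratio at least 2 times the second) was the only guard. The cells, gene lists and tests were chosen with earlier results of these data known. Leaving out product-rich cells and the 6 Gstm1-high cells was chosen after the data were seen.

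Counts were summed over the cells of a group and scaled by TMM (the method of edgeR 4.0.16, coded in Python 3.11.15 with NumPy 2.4.6, SciPy 1.17.1 and pandas 2.3.3, figures with matplotlib 3.10.9). A gene counted as higher or lower past 2-fold, with no test because each group is 1 pool. Ratio intervals are conditional exact binomial, UMI sums exact Poisson and shares Clopper-Pearson, all at 95%. A sum of 0 was given a floor of 3 counts. Group totals ranged from 382422 to 1957697 UMIs, so low genes have wide intervals. Free RNA was read from 331 Ptprc+ Epcam- cells of run 2.

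Named genes were up to 12 in each direction with the largest ratio past 2-fold, given at least 20 UMIs and a UMI in at least 25% of the cells of the higher group, at most 33% of that group's UMIs in 1 cell, a castrated level outside the intact sums and the same side of 2-fold under each scaling. To these were added the 4 most abundant members of each of 25 lists and the luminal genes the study names; any other gene was named after its values were seen. A few listed genes are counted in their lists but not reported here by name. The script was tested on simulated data with known changes. Alternatives changed the scaling, filter, barcode and keratin limits, UMI depth, weighting of cells and the intact sums used. Gene positions are GRCm38 (GENCODE vM21) and promoters RefSeq GRCm38.p6.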

Additional observations from a re-analysis of the deposited data

Results flagged for a closer look

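Without product-rich cells, 2 of the named genes had opposite directions in DLP and AP RFP- cells and were picked out for that reason; the difference between lobes was not tested, since each group is 1 pool. Chac1, a glutathione-degrading enzyme of the integrated stress response, had a log2 ratio of 1.57 in DLP and -2.65 in AP. Upk1a, a uroplakin of urothelium, had -1.15 in DLP and 1.17 in AP.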

How the results depend on the processing

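No paired analysis was possible because each treatment was 1 pool in run 2 and castrated DLP cells were analysed in no other run. With all members, the 249 genes at least 2-fold higher became 726 with each cell weighted equally, 1405 with no minimum level, 159 with the study's barcode thresholds (24 castrated and 68 intact cells), 48 when the 7500 limit was set on UMIs (7 and 13 cells) and 153 at 5000 UMIs per cell. The 335 lower genes became 503, 1119 and 84 with equal weights, no minimum and the UMI limit. Without product-rich cells the 348 higher genes became 1678 with no minimum, 182 with the study's thresholds, 48 with the UMI limit and 160 at 5000 UMIs, and the 473 lower genes 1566, 291, 84 and 276. Genes outside the intact sums numbered 549 to 560 (539 with all 3 sums) and, without product-rich cells, 790 to 802 (780) when 1 intact sum was left out.

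Among values past 2-fold, these directions reversed. Under the UMI limit Gstm1 was at -2.38 and Runx1 at -0.65 in both sets, and Basp1 at -0.33 without product-rich cells. Leaving out product-rich cells turned Cdo1 to 0.81 and the median of mesonephric and urothelial markers to 0.58. Leaving out the 6 Gstm1-high cells turned Gstm1 to -0.13 and the glutathione transferase median to -0.02. Values under 2-fold also changed sign under some settings: without product-rich cells Ly6a (0.22) reached -2.63, Bpgm (-0.79) 1.58 and Dpp4 (-0.19) 1.08, and with all members Spink1 spanned -1.50 to 3.03 and 9530002B09Rik (-0.47) reached 0.03. The cause was not tested; the UMI limit left 20 cells in all. At the depth of the castrated sum, genes under about 25.4 UMIs per 1000000 could not be compared.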
